A study of Mus musculus with 16 samples.

Results

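A set of 10 genes that low oxygen induces and that carry out no step of glycolysis was followed through every library of a study of breast tumors in mice: Car9, P4ha1, P4ha2, Adm, Ndrg1, Vegfa, Bnip3, Egln1, Egln3 and Ankrd37. They were chosen by name, as known targets of the hypoxia-inducible factors (HIF), and with earlier results of these data known. Their counts beside the shares of all genes are therefore descriptive. All 10 were found among the 17147 genes shared by the deposited tables and passed the filter on low values in each comparison. The series measured poly(A) RNA by sequencing in 4T1 tumors, which arise from a mouse mammary carcinoma line used to model triple-negative disease, and asked how tumors at a primary site and in the liver respond to paclitaxel, a drug that stabilises microtubules. All 16 tumors grew in female wild-type BALB/c mice aged 6 weeks. The post_SC group held 3 mammary fat pad tumors, labelled SC and called subcutaneous here, from mice given paclitaxel, and the pre_SC group held 3 such tumors without it. The post_Liver group held 5 paclitaxel-treated tumors and the pre_Liver group 5 untreated tumors that had grown from cells placed under the liver capsule. Fat pads received 400000 cells and livers 200000, tumors grew for 15 days, and intraperitoneal paclitaxel was given at 10 mg/kg, on 5 occasions each week across 2 weeks, while control mice received PBS. Tumors were digested to cell suspensions, so host cells of each site were sequenced with the carcinoma cells. Whether untreated tumors were harvested ahead of dosing or alongside the treated ones is not labelled, and neither is the mouse behind each library. Tumor age and treatment therefore cannot be told apart, and p-values reflect variation among these libraries that may be technical.

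When oxygen is plentiful, prolyl hydroxylases of the Egln family mark the alpha subunits of HIF for destruction through the von Hippel-Lindau ubiquitin ligase. When oxygen falls, the alpha subunits persist, pair with Arnt and bind a short core motif, written RCGTG with A or G as its first base, in the promoters and enhancers of their targets. The targets described here handle acid (Car9), mature collagen (P4ha1 and P4ha2), signal to blood vessels (Adm and Vegfa), answer stress (Ndrg1), remove mitochondria (Bnip3) and feed back on the pathway (Egln1 and Egln3).

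Promoters of 9 of the 10 genes were found in the RefSeq table of build GRCm38.p6, each covering 250 bases before the start site and 50 after it. The 5 printed here belong to the 3 genes that fell furthest in the treated fat pad tumors (Car9, P4ha1 and Ankrd37) and to 2 that did not pass the test there (Bnip3 and Egln3), so that the letters can be read beside the values. They lie at chr4:43506776-43507075 on the plus strand, chr10:59323046-59323345 on the plus strand, chr8:45999801-46000100 on the minus strand, chr7:138909457-138909756 on the minus strand and chr12:54203825-54204124 on the minus strand, in the order given. Capitals mark ACGTG and GCGTG or their reverse complements CACGT and CACGC, and overlapping matches run together.
Car9 promoter: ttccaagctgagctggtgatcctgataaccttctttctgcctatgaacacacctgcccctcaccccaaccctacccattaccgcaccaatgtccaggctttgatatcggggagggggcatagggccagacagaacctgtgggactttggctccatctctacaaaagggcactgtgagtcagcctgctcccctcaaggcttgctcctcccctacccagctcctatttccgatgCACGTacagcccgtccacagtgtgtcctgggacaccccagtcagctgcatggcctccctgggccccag
P4ha1 promoter: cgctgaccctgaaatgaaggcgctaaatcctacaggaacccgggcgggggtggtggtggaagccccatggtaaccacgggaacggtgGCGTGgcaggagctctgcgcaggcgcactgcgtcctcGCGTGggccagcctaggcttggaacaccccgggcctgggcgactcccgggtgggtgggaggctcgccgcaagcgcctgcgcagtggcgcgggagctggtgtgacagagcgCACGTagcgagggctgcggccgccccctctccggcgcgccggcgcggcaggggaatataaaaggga
Ankrd37 promoter: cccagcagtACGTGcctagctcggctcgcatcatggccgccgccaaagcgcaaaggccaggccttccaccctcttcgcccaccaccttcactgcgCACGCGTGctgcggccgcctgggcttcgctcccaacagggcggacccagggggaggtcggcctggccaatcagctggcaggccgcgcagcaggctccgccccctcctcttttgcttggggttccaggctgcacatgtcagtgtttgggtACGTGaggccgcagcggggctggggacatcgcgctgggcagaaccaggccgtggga
Bnip3 promoter: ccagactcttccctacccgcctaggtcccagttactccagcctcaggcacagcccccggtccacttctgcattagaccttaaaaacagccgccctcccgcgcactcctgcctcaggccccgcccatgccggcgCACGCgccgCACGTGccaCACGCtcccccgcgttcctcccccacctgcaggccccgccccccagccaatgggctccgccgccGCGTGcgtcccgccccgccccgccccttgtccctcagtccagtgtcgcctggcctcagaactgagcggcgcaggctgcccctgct
Egln3 promoter: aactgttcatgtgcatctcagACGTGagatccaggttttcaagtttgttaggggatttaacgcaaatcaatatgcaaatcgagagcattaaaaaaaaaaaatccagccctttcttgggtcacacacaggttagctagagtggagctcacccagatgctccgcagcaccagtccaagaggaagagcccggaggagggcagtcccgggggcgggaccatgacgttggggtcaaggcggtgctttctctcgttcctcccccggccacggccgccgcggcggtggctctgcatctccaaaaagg

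Car9 held a single match, which began 18 bases before the start site, and P4ha1 held 3, which began 163, 126 and 16 bases before it. Ankrd37 held 4, Bnip3 5, of which the farthest began 117 and the nearest 35 bases before its start site, and Egln3 1, which began 229 bases before its start. ACGTG was present on either strand in a listed promoter of 8 of the 9 genes, against 19.6% of all 32851 promoters in the table, and GCGTG in 7 of the 9, against 32.4%. Adm was the one without ACGTG. Vegfa had its matches only in the downstream one of its 2 listed promoters, which lies inside the gene. The listed promoter at the start of the Vegfa gene had none. The Ankrd37 and P4ha2 windows also lie inside their genes as annotated, downstream of the outermost start of each gene. Both gene counts include Vegfa, which had 2 windows, whereas the shares are per promoter. Matches were present in genes that fell in treated fat pad tumors and in genes that did not pass the test there. A match of letters is a description of the window and not a binding site.

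Units differed between the tables. The subcutaneous libraries were deposited as TPM (transcript shares scaled to a fixed total) and the liver libraries as FPKM (fragments scaled by gene length and library size), without read counts, which leaves sequencing depth unknown. Differences are given on the scale log2(value + 1) with the standard error of a limma fit over all genes tested, and a gene was called where its Benjamini-Hochberg adjusted p over all genes was under 0.05. The labelled tissue was present at each site: the 16 carcinoma epithelium markers summed to 5775 to 6765 TPM in post_SC, 5811 to 6342 in pre_SC, 1495 to 4926 in post_Liver and 843 to 3769 in pre_Liver. The 20 hepatocyte markers, led by Alb, Apoa1 and Ahsg, summed to 4438 to 113677 TPM in post_Liver and 43197 to 172399 in pre_Liver, and to at most 183 in the fat pad tumors. No marker of either list was at 0 in all libraries of a group. The closest pair of libraries in any group was post_Liver 2 and 3, in which 0.699% of 13868 genes differed by more than 2-fold, so results of the liver were also computed with that pair averaged.

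In the fat pad, most of the HIF targets fell after paclitaxel. Of the 10 genes, 6 fell in post_SC relative to pre_SC, none rose, and 4 did not pass the test. Among all 13364 genes tested, 6.94% were called, of which 4.27% fell and 2.67% rose. The groups did not overlap, with post_SC lower, for 8 of the 10 genes, against 18.7% of all genes. The median difference of the 10 genes was −1.08, against −0.03 for all genes, and their summed level was 713 to 740 TPM in post_SC and 1375 to 1545 in pre_SC. In bulk tissue, fewer cells of a type and less RNA per cell cannot be told apart.

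Car9 encodes a membrane-bound carbonic anhydrase that hydrates carbon dioxide at the outer face of the cell. It stood at 14.9, 6.66 and 21.1 TPM in the post_SC libraries, against 125, 113 and 125 TPM in the pre_SC libraries. The highest treated tumor thus stayed far under the lowest untreated one. The difference was −3.13 ± 0.35 (SE; adjusted p = 0.00831, limma), 8.77-fold lower, and was the largest among the 10 genes.

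P4ha1 and P4ha2 encode catalytic subunits of the collagen prolyl 4-hydroxylase, which lets collagen form a stable triple helix. P4ha1 was 32.3, 32.1 and 40.9 TPM in post_SC and 151, 149 and 136 TPM in pre_SC. With both groups tight and far apart, it had the lowest p of the 10 genes and fell by 2.03 ± 0.13 (SE; adjusted p = 0.00163, limma), 4.08-fold. P4ha2 was 16.8, 17.1 and 17.1 TPM in post_SC and 26.0, 35.3 and 19.9 TPM in pre_SC. Every treated library lay under every untreated one, yet the untreated values were scattered and the difference of −0.60 ± 0.21 did not pass the test (adjusted p = 0.116, limma).

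The secreted vascular factors are Vegfa, the main growth factor of endothelial cells, and Adm, a peptide that widens vessels. Vegfa was 41.2, 38.0 and 30.7 TPM in post_SC and 67.0, 78.7 and 91.0 TPM in pre_SC, without overlap. It fell by 1.09 ± 0.16 (SE; adjusted p = 0.0169, limma), 2.12-fold. Adm was 20.5, 14.6 and 45.5 TPM in post_SC and 41.4, 35.3 and 64.4 TPM in pre_SC. Here post_SC 3 lay above 2 of the untreated tumors, the groups overlapped, and the difference of −0.89 ± 0.40 did not pass the test (adjusted p = 0.197, limma).

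Ndrg1, a cytoplasmic protein induced by several stresses, had the highest mean of the 10 genes in both groups, at 215, 206 and 299 TPM in post_SC and 584, 663 and 653 TPM in pre_SC. The groups did not overlap, and the gene fell by 1.42 ± 0.15 (SE; adjusted p = 0.00786, limma), 2.67-fold. Bnip3, an outer mitochondrial membrane protein that recruits the autophagy machinery, was 35.6, 98.6 and 66.5 TPM in post_SC and 128, 133 and 132 TPM in pre_SC. The untreated libraries were nearly equal while the treated ones spread 2.77-fold among themselves, all below the untreated, and the difference of −1.07 ± 0.32 did not pass the test (adjusted p = 0.0846, limma).

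The oxygen sensors themselves divided. Egln1, the main HIF prolyl hydroxylase in most cells, was 58.4, 60.8 and 76.7 TPM in post_SC and 108, 122 and 107 TPM in pre_SC, and fell by 0.78 ± 0.14 (SE; adjusted p = 0.0233, limma). Egln3, a close relative that hypoxia induces strongly, was 295, 231 and 114 TPM in post_SC and 105, 182 and 137 TPM in pre_SC. It was the one member with a higher mean in treated tumors, 213 ± 91.9 TPM against 141 ± 39.0 TPM (SD, n = 3 each), but post_SC 3 lay within the untreated range and the difference of 0.52 ± 0.35 did not pass the test (adjusted p = 0.369, limma). Ankrd37, a small ankyrin repeat protein, was 8.37, 7.43 and 14.5 TPM in post_SC and 38.9, 31.2 and 28.1 TPM in pre_SC. It fell by 1.64 ± 0.25 (SE; adjusted p = 0.0172, limma), 3.12-fold, with no overlap. Exons of Ankrd37 overlap those of Ufsp2 and Lrp2bp on the other strand, and the sources used here do not say whether counting used the strand, so reads of these genes cannot be told apart. Ufsp2 averaged 36.7 TPM in post_SC and 44.1 TPM in pre_SC and differed by −0.30 ± 0.22 (adjusted p = 0.406, limma). Exons of Car9, Ndrg1 and Bnip3 are also overlapped on the other strand, by gene models that were not tested.

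Within the treated fat pad tumors the libraries differed by gene. Replicate 3 held the highest treated value of 7 of the 10 genes and replicate 2 the lowest of 5, with Egln3 and Vegfa ordered the other way, since replicate 3 was the lowest for both. Car9, P4ha1 and Ndrg1 passed the test under all 15 alternative settings and with each library left out. Vegfa, Egln1 and Ankrd37 lost their calls when any 1 pre_SC library was left out (3 genes called in each case), and Egln1 and Ankrd37 also without post_SC 1 (4 called), while all 3 stayed lower. Without post_SC 2, Bnip3 was called as well, making 7 genes.

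**Figure D1:**
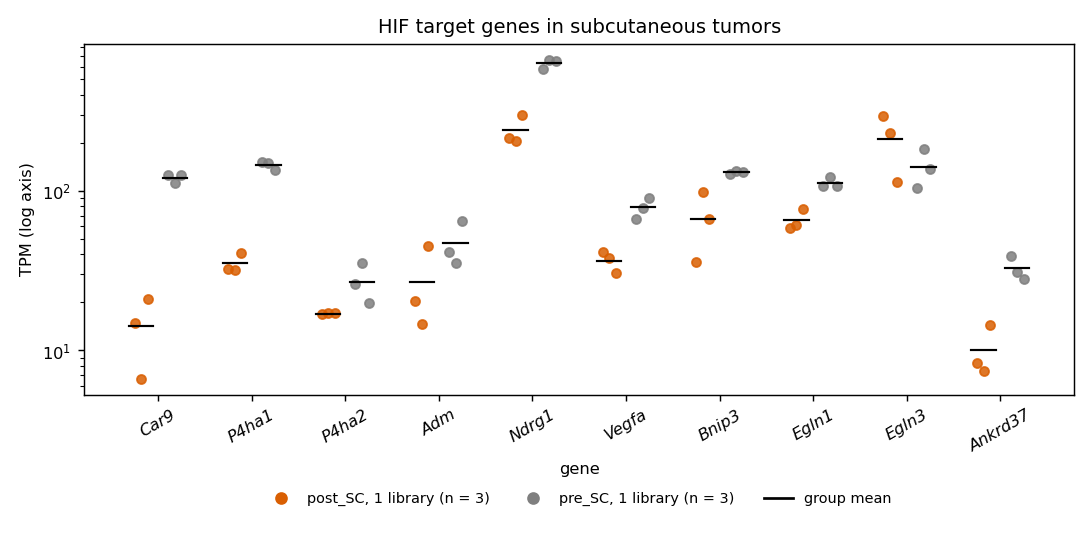
TPM of the 10 HIF target genes in each subcutaneous library on a log axis, with post_SC (orange, n = 3) left of pre_SC (grey, n = 3) and black bars at the group means. The treated points lie under the untreated points for 8 genes and overlap them for Adm and Egln3, and Car9 shows the widest gap, at 6.66 to 21.1 TPM in post_SC and 113 to 125 TPM in pre_SC.

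Other genes of the pathway were read beside these 10. Of 19 glycolytic HIF targets, 13 fell in post_SC and none rose, with a median of −1.01. Among them Pgam1, a mutase of lower glycolysis, averaged 291 ± 11.8 TPM in post_SC and 757 ± 33.2 TPM in pre_SC (SD, n = 3 each; −1.37 ± 0.09, SE). Of 24 further targets outside glycolysis that were tested, 11 fell and 13 did not pass the test. Fam162a, a mitochondrial protein, fell to 91.2 ± 16.1 TPM in post_SC, against 258 ± 25.2 TPM in pre_SC (SD, n = 3 each; adjusted p = 0.00619, limma). Ak4, a mitochondrial adenylate kinase, fell by 2.52 ± 0.29 and Car12, a membrane carbonic anhydrase like Car9, by 2.09 ± 0.25 (SE; adjusted p = 0.00929 and 0.0104 in that order, limma). The HIF subunits and the oxygen sensing machinery had 1 of 11 genes called and a median of 0.01. That is near all genes, of which 6.94% were called, with a median of −0.03. The called gene of the list was Rbx1, a subunit of the ubiquitin ligase, which rose by 0.60 ± 0.11 (adjusted p = 0.0303, limma). Hif1a, the alpha subunit, averaged 70.4 ± 11.9 TPM in post_SC and 91.3 ± 17.4 TPM in pre_SC (SD, n = 3 each), which did not pass the test (adjusted p = 0.227, limma).

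Partners of the members by function were followed too. Around Vegfa and Adm, 4 of 12 ligands and receptors fell and 1 rose. Flt1, a receptor of Vegfa, fell by 1.08 ± 0.22 and the related ligand Vegfb by 0.79 ± 0.17, while Ramp2, which forms the adrenomedullin receptor with Calcrl, rose by 1.27 ± 0.21 (adjusted p = 0.0338, 0.0365 and 0.0202 in that order, limma). Ramp2 is expressed in endothelium, and 7 of 12 endothelial markers rose in post_SC and 1 fell, with a summed level of 395 to 445 TPM in post_SC and 248 to 308 TPM in pre_SC. The part of vessel content in the fall of Vegfa and Flt1 was not tested. Beside P4ha1, 5 of 13 collagen modifying enzymes fell, including all of the lysyl hydroxylases Plod1, Plod2 and Plod3, at −0.84, −1.51 and −1.06. Beside Car9, 4 of 9 genes of pH regulation fell, among them Car12, Car13 and the lactate exporter Slc16a3. Beside Bnip3, none of 13 mitophagy and autophagy genes fell and 2 rose, Pink1 at 0.88 ± 0.18 and Map1lc3a at 0.87 ± 0.19 (adjusted p = 0.0328 and 0.0379, limma). The relatives Ndrg2, Ndrg3 and Ndrg4 did not pass the test. Of 15 proliferation genes, 10 also fell in post_SC. The carcinoma epithelium list had 1 of 16 genes lower, and dividing each library by that list's sum left the same count of 6 members called.

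In the liver, none of the 10 genes passed the test after paclitaxel, and the groups overlapped for all 10. Among all 13008 genes, 3.64% were called, and the groups stood apart with post_Liver higher for 5.16% and lower for 1.47%. In the same fit 4 of the 10 genes (P4ha1, Adm, Ndrg1 and Egln1) had an unadjusted p under 0.05, all with higher means in post_Liver, where 31.7% of all genes had one and 22.2% had one with a higher mean. The median difference of the 10 genes was 0.67, against 0.37 for all genes, which leaves 0.30 relative to that shift. With libraries scaled by the median of ratios, the median of all genes was 0.03 and again none of the 10 genes was called.

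Ndrg1 gave the largest mean difference. It was 82.4, 156, 131, 54.7 and 136 FPKM in post_Liver and 108, 63.4, 43.7, 21.6 and 18.7 FPKM in pre_Liver. Replicates 1 and 2 of pre_Liver lay above post_Liver 4, and pre_Liver 1 also above post_Liver 1, and the difference was 1.31 ± 0.48 (SE; adjusted p = 0.114, limma). Egln3 was 42.2, 135, 109, 17.4 and 68.9 FPKM in post_Liver and 53.0, 40.5, 27.7, 8.33 and 13.9 FPKM in pre_Liver, an equal mean difference of 1.31 with a wider error of 0.62 (adjusted p = 0.17, limma). Egln1 was 38.0, 35.4, 34.6, 23.9 and 43.5 FPKM in post_Liver and 30.7, 27.6, 20.6, 17.5 and 17.1 FPKM in pre_Liver. Only post_Liver 4 lay within the untreated range of Egln1, and the difference was 0.62 ± 0.22 (SE; adjusted p = 0.105, limma). With a hepatocyte score as a covariate in the fit, the differences were 0.58 ± 0.50 for Ndrg1, 0.05 ± 0.47 for Egln3 and 0.41 ± 0.25 for Egln1 (SE). Other genes went the other way with it. P4ha1 was at 0.85, Adm at 0.84 and P4ha2 at 0.57, against 0.72, 0.73 and 0.05 without the covariate.

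P4ha1 was 42.4, 24.3, 29.6, 34.8 and 57.8 FPKM in post_Liver and 37.1, 26.3, 21.1, 17.8 and 12.3 FPKM in pre_Liver, a difference of 0.72 ± 0.31 (adjusted p = 0.142, limma). Adm was 7.53, 7.11, 5.04, 6.38 and 15.1 FPKM in post_Liver and 6.79, 4.26, 4.35, 3.50 and 3.03 FPKM in pre_Liver, a difference of 0.73 ± 0.28 (adjusted p = 0.117, limma). For both genes the highest value was that of post_Liver 5 and the untreated maximum that of pre_Liver 1. Car9, which fell most in the fat pad, was 6.60, 10.9, 5.98, 5.12 and 6.88 FPKM in post_Liver and 20.8, 6.96, 7.98, 2.41 and 1.15 FPKM in pre_Liver. Its untreated values spread 18.1-fold and enclosed all 5 treated ones, and the difference was 0.28 ± 0.54 (95% interval −0.91 to 1.47).

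Vegfa and Bnip3 had lower means in treated liver tumors. Vegfa was 18.2, 23.8, 27.6, 26.7 and 45.5 FPKM in post_Liver and 47.8, 24.8, 61.5, 42.8 and 33.7 FPKM in pre_Liver, a difference of −0.55 ± 0.28 (adjusted p = 0.192, limma). Bnip3 averaged 53.4 ± 23.7 FPKM in post_Liver and 75.5 ± 27.3 FPKM in pre_Liver (SD, n = 5 each), with a difference of −0.50 ± 0.37 (adjusted p = 0.32, limma). Neither difference passed the test. P4ha2 ranged over 4.18 to 13.7 FPKM in post_Liver and 5.17 to 12.1 FPKM in pre_Liver, and Ankrd37 over 2.77 to 11.6 and 1.17 to 10.4 FPKM.

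**Figure D2:**
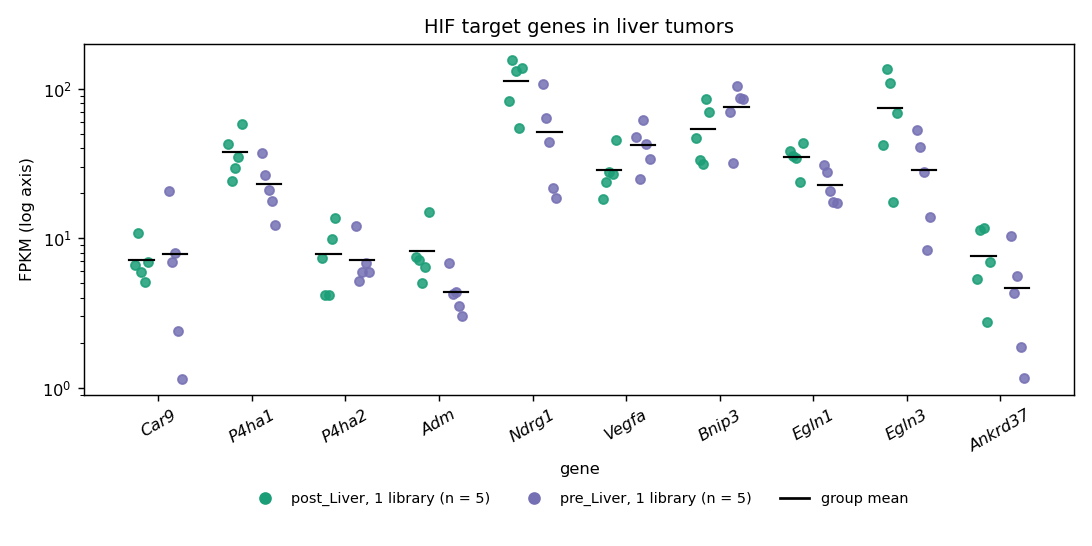
FPKM of the 10 HIF target genes in each liver library on a log axis, with post_Liver (green, n = 5) left of pre_Liver (violet, n = 5) and black bars at the group means. The groups overlap for every gene, and the untreated Car9 values span 1.15 to 20.8 FPKM around treated values of 5.12 to 10.9 FPKM.

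The untreated liver tumors were ordered alike for most of the genes. Among the 5 pre_Liver libraries, replicate 1 held the highest value of 8 of the 10 genes, with Vegfa and Bnip3 the exceptions, and replicate 5 the lowest of 6. The carcinoma epithelium sum was 2685, 3769, 1730, 843 and 986 TPM in pre_Liver 1 to 5, and the hepatocyte sum was 74886, 43197, 116657, 169495 and 172399 TPM. Replicates 4 and 5, which had the least carcinoma signal, were the 2 lowest for Car9, P4ha1, Adm, Ndrg1, Egln1, Egln3 and Ankrd37. P4ha2, Vegfa and Bnip3 went against that order and were lowest in pre_Liver 2, the library with the most carcinoma and the least hepatocyte signal. No gene was highest in pre_Liver 2. The authors adjusted replicates 4 and 5 apart from replicates 1 to 3, so library set and tumor content cannot be told apart here. With pre_Liver 1 to 3 only, the median liver response of the 10 genes was 0.24, against 0.67 with all 5. In the treated livers, replicate 4, with the highest hepatocyte sum of 113677 TPM, held the lowest value of 5 genes and the highest of Bnip3. How much of each gene's signal came from which cells was not tested.

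Of the other lists in the liver, 1 of 19 glycolytic targets rose (Pfkfb4, 1.21 ± 0.20, adjusted p = 0.0135, limma), and none of 23 further HIF targets was called. Ep300, a coactivator of HIF, rose by 0.82 ± 0.14 (adjusted p = 0.0155, limma) as the one called gene among 11 of the sensing machinery, and Map1lc3b rose by 0.61 ± 0.13 (adjusted p = 0.0325, limma) as the one among 13 mitophagy genes. Neutrophil markers moved with the treated livers: 10 of 11 rose, and their sum was 3619 to 21891 TPM in post_Liver and 198 to 1512 TPM in pre_Liver. Their part in the values of the 10 genes was not tested. The hepatocyte list had a median of −2.20 and the carcinoma list of 1.39, with no gene of either called.

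The difference between the responses was tested directly, as the liver response minus the subcutaneous response over all 16 libraries in TPM of shared genes. It was called for 4 of the 10 genes, all higher, where 3.01% of all 13868 genes were called and 2.22% were higher. P4ha1 differed by 2.76 ± 0.44 (SE; adjusted p = 0.00714, limma), Car9 by 3.48 ± 0.85 (adjusted p = 0.0415, limma), Ndrg1 by 2.74 ± 0.66 (adjusted p = 0.0413, limma) and Egln1 by 1.41 ± 0.31 (adjusted p = 0.0278, limma). The median of all genes was 0.38 in this contrast, and relative to it the 4 genes stood at 2.38, 3.10, 2.36 and 1.03. All 4 fell in the fat pad, and none of them passed the test in the liver.

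The other 6 genes did not pass the test of the difference. Ankrd37 (2.44 ± 0.74, adjusted p = 0.0788) and Adm (1.68 ± 0.54, adjusted p = 0.0898) lay nearest to the threshold in limma, and P4ha2, Vegfa, Bnip3 and Egln3 lay between 0.52 and 0.81. For Vegfa the 95% interval was −0.35 to 1.39, and its mean was lower after treatment at both sites. Among the other lists, 9 of 19 glycolytic targets and 2 of 24 further targets (Ero1l and Fam162a) were higher in this contrast, as were 7 of 11 neutrophil markers. The carcinoma epithelium list had a median of 1.70 in this contrast, with 1 of 16 genes called, and its part in the differences was not tested. When each library was divided by its carcinoma epithelium sum, none of the 10 genes was called and 3 genes were called in all, with P4ha1 at 1.80 ± 0.63 (adjusted p = 0.33, limma) and Car9 at 2.56 ± 0.68 (adjusted p = 0.239, limma). With post_Liver 2 and 3 averaged, 2 genes stayed called, P4ha1 and Egln1, and with a pseudocount of 0.1 Car9 lost its call (adjusted p = 0.0533, limma). Leaving out single libraries gave 1 to 5 called genes, with P4ha1 among them each time and alone without any pre_SC library, post_SC 1 or 2, pre_Liver 3 or 4, or post_Liver 1.

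**Figure D3:**
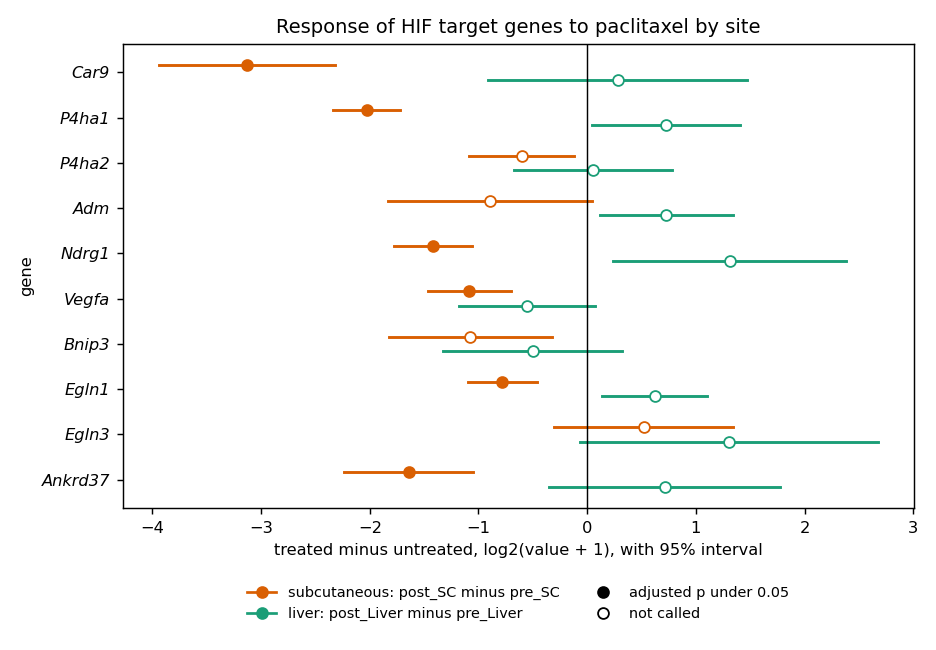
Differences of log2(value + 1), treated minus untreated, with 95% intervals, for subcutaneous (orange) and liver (green) tumors, filled where the adjusted p was under 0.05. The 6 filled subcutaneous points lie left of 0, between −3.13 and −0.78, and no liver point is filled.

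Before treatment, most of the genes were lower in liver tumors than in fat pad tumors. In pre_Liver relative to pre_SC, 8 of the 10 genes were lower and none higher, where 48.9% of all 13727 genes were called, 33.5% lower and 15.4% higher. The groups did not overlap, with pre_Liver lower, for 7 genes, against 35.2% of all genes lower and 17.0% higher. The median of the 10 genes was −1.73 and that of all genes −0.52, a distance of −1.21. The whole table was sensitive to scaling here, with 2108 genes higher and 4600 lower in TPM with the authors' constant removed, 2628 higher and 5231 lower in the table as deposited, 3136 higher and 2592 lower after median of ratios scaling, and 9704 higher and 231 lower per unit of carcinoma signal.

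Car9 was 37.9, 13.2, 14.6, 4.68 and 2.14 TPM in pre_Liver, against the 113 to 125 TPM of pre_SC, a difference of −3.48 ± 0.71 (SE; adjusted p = 0.00734, limma). Ndrg1 was 197, 120, 79.9, 42.0 and 34.9 TPM in pre_Liver, against 584 to 663 TPM in pre_SC, a difference of −3.01 ± 0.53 (adjusted p = 0.00375, limma). Adm was 12.4, 8.08, 7.96, 6.79 and 5.65 TPM in pre_Liver, against 35.3 to 64.4 TPM in pre_SC, and had the lowest p of the 10 genes (−2.38 ± 0.28, adjusted p = 0.00042, limma). In all of these the highest liver tumor lay well under the lowest fat pad tumor. Ankrd37 (−2.09 ± 0.54), P4ha1 (−1.83 ± 0.31), Egln3 (−1.63 ± 0.55) and Egln1 (−1.42 ± 0.22) were also lower without overlap, and P4ha2 (−0.98 ± 0.29, adjusted p = 0.0272, limma) was lower with pre_Liver 1 inside the fat pad range.

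Vegfa and Bnip3 stood apart from the rest at this step. Vegfa was 87.1, 47.1, 112, 83.1 and 62.8 TPM in pre_Liver and 67.0, 78.7 and 91.0 TPM in pre_SC, with means of 78.5 ± 24.9 and 78.9 ± 12.0 TPM (SD, n = 5 and 3) and a difference of −0.06 ± 0.28 (95% interval −0.69 to 0.58). Bnip3 was 127, 60.4, 190, 168 and 160 TPM in pre_Liver and 128, 133 and 132 TPM in pre_SC, with a 95% interval of −0.79 to 0.80. Neither passed the test, and relative to the median of all genes they stood at 0.46 and 0.52.

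The differences before treatment changed when libraries were scaled by carcinoma signal, and the part of tumor content in them was not tested. In pre_Liver, 15 of 16 carcinoma markers were lower than in pre_SC, with a median of −2.48, and all 20 hepatocyte markers were higher, with a median of 10.69. Divided by the carcinoma epithelium sum of each library, the median of the 10 genes turned to 0.09 (1.15 for all genes), and 3 genes were called. Car9 (−1.75 ± 0.52, adjusted p = 0.0186, limma) and Ndrg1 (−1.17 ± 0.30, adjusted p = 0.0124, limma) were still lower, and Vegfa was higher (1.77 ± 0.61, adjusted p = 0.0288, limma). On that scale P4ha1 was at 0.00 ± 0.35, Adm at −0.63 ± 0.41, Ankrd37 at −0.40 ± 0.41, Egln1 at 0.41 ± 0.36 and Egln3 at 0.19 ± 0.30. Host cells also express these genes, so dividing by a carcinoma sum does not give a level per carcinoma cell. Under median of ratios scaling 6 genes were called, without P4ha2 and Egln3. Within the pre_Liver libraries 1 to 3, which the authors adjusted together with pre_SC, 7 genes were called, without P4ha2, and the median was −1.30. Leaving out 1 library at a time left 5 to 8 genes called. Egln3 lost its call without any pre_SC library or pre_Liver 3, 4 or 5, Ankrd37 without any pre_SC library, and P4ha2 without pre_SC 1 or 2 or pre_Liver 3 or 5.

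**Figure D4:**
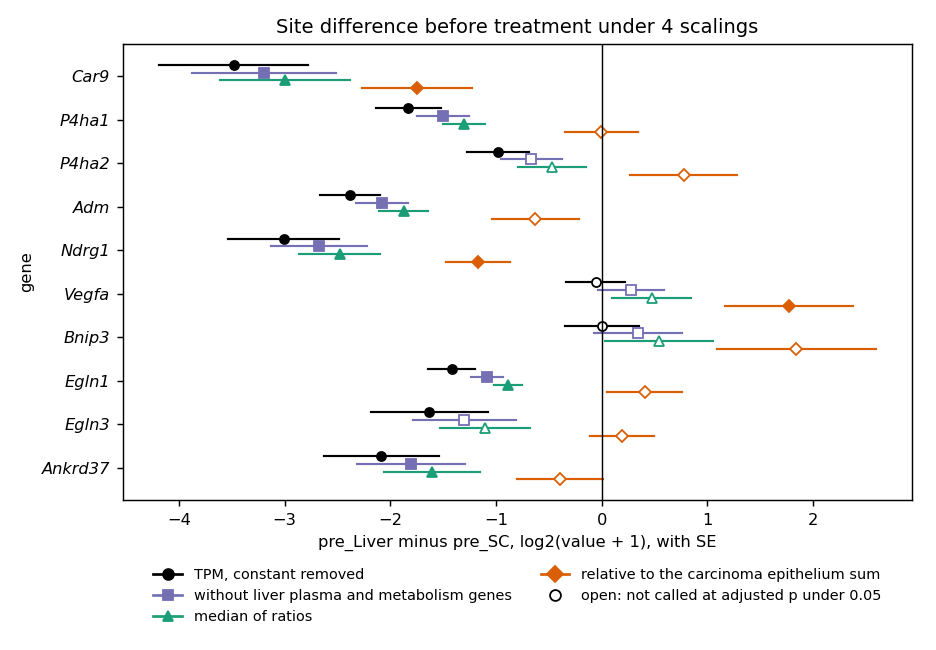
Difference between pre_Liver and pre_SC for each gene, in log2(value + 1) with SE, under 4 scalings of the libraries, filled where the adjusted p was under 0.05. Black points (TPM) lie left of 0 for 8 called genes, and orange diamonds (per carcinoma epithelium sum) lie further right for every gene, with Car9 and Ndrg1 still left of 0 and Vegfa right of it among the called ones.

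Other lists were read in TPM before treatment, where 33.5% of all genes were lower and 15.4% higher. The HIF target lists were mostly lower and the rest were mixed. Around Vegfa and Adm, 5 of 12 genes were higher and 4 lower, and of 13 mitophagy genes 4 were higher and 3 lower. Of 11 pH genes, 3 were higher and 7 lower, and 5 of 13 collagen modifying enzymes were lower. In pre_Liver, 16 of 19 glycolytic targets and 16 of 24 further HIF targets were lower and 1 further target was higher. Slc2a1, the glucose transporter, differed by −2.55 ± 0.40, Ero1l, an oxidase of protein folding, by −2.15 ± 0.33 and Ddit4, a brake on growth signalling, by −2.65 ± 0.45 (SE; adjusted p = 0.00227, 0.00203 and 0.00314 in that order, limma). Epas1, which encodes the alpha subunit HIF-2, was higher by 1.67 ± 0.36 (adjusted p = 0.00923, limma) while 5 of 11 genes of the sensing machinery were lower. The median of that list was −0.57, near the −0.52 of all genes. Bnip3l, the closest relative of Bnip3, was lower by 1.00 ± 0.18 (adjusted p = 0.00407, limma), unlike Bnip3. Ndrg2 was higher by 5.79 ± 0.59 (adjusted p = 0.000186, limma), opposite to Ndrg1, and is a gene of normal liver. Around Vegfa, the receptor Flt4 was higher by 2.24 ± 0.32 and Flt1 and Nrp2 lower by 1.36 ± 0.21 and 2.04 ± 0.21 (adjusted p = 0.00118, 0.00208 and 0.000202 in that order, limma).

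After treatment most of the 10 genes overlapped between the sites, as did most of all genes. The treated libraries stand in tables normalized separately, so they are set side by side in TPM of shared genes with no test. The 10 genes summed to 581, 809, 715, 508 and 910 TPM in post_Liver and 740, 713 and 727 TPM in post_SC. The groups overlapped for 9 of the 10 genes, and P4ha1 was above, at 44.6 to 113 TPM in post_Liver and 32.1 to 41.0 TPM in post_SC, where 14.1% of all genes were above and 13.7% below without overlap. Car9 was 9.74 to 20.0 TPM in post_Liver and 6.67 to 21.1 TPM in post_SC, and Egln1 was 45.4 to 85.1 TPM in post_Liver and 58.5 to 76.8 TPM in post_SC. These 2 had the smallest log2 differences of means, at 0.01 each, while those of the others ran from −0.81 for Egln3 and −0.69 for Adm to 0.59 for Bnip3 and 0.95 for P4ha1. The median difference of the 10 genes was 0.01, against −0.07 for all genes. Under median of ratios scaling P4ha1 overlapped as well, and per unit of carcinoma signal 4 genes were above.

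Ndrg1 had the highest mean of the 10 genes in post_SC (240 TPM), pre_SC (634) and post_Liver (212), and Bnip3 in pre_Liver (143, with Ndrg1 next at 96.0 and overlapping it). In pre_SC, P4ha1, Egln3, Bnip3, Car9 and Egln1 followed between 146 and 112 TPM, a run in which each overlapped its neighbour except Bnip3 and Car9, and P4ha2 was last at 27.1 TPM. Car9 averaged 121 TPM there, was next to last in post_SC at 14.2 TPM and last in post_Liver at 13.4 TPM, within the spread of P4ha2, Ankrd37 and Adm at 14.3 to 15.7 TPM. Egln3 came after Ndrg1 in both treated groups, at 213 TPM in post_SC and 139 TPM in post_Liver. Adm, at 47.1 TPM in pre_SC, was last in pre_Liver at 8.28 TPM, next to Ankrd37 at 8.72 TPM.

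**Figure D5:**
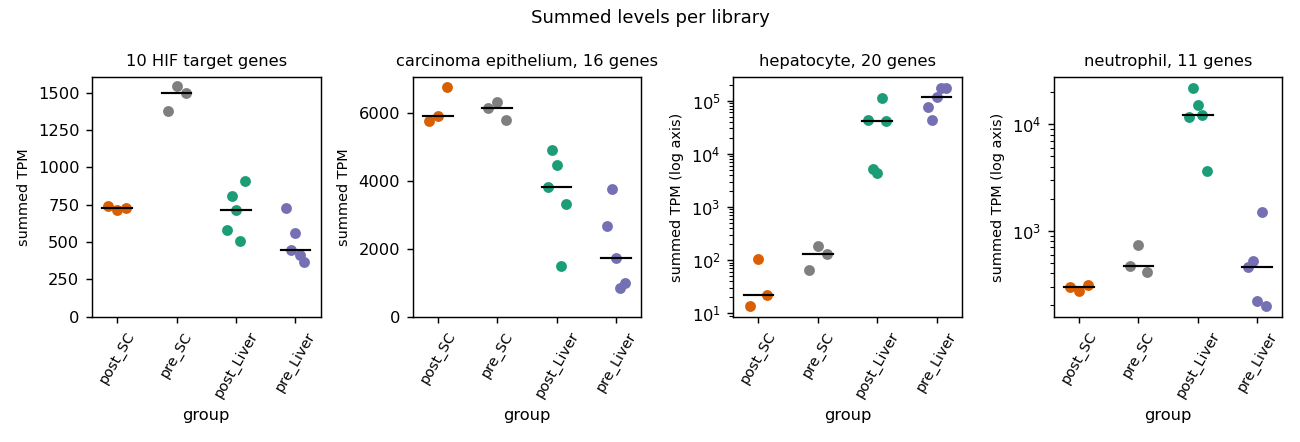
Summed TPM per library of the 10 HIF target genes, of 16 carcinoma epithelium genes, of 20 hepatocyte genes and of 11 neutrophil genes, the last 2 on log axes, with treated left of untreated at each site and bars at the medians. The HIF target sum is 713 to 740 in post_SC and 1375 to 1545 in pre_SC while the carcinoma sum overlaps between them, and in the liver both sums overlap between treated and untreated tumors.

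Across the 16 libraries, deviations of other genes from the 4 group means were set against the mean of the standardised deviations of the 10. The closest were Slc2a1 (Pearson r = 0.92), Tnfrsf9 (0.91), Eno2 (0.90), AA467197 (0.90) and Ero1l (0.88). This r is a measure of likeness over libraries that share group, normalization and tumor content. The mean does not stand for each of the 10 alike, since Bnip3 had a median r of −0.33 with the other 9 and Vegfa of 0.11. Eno2, an enolase of glycolysis, averaged 6.68 TPM in post_SC, 21.0 in pre_SC, 12.2 in post_Liver and 8.24 in pre_Liver. Among these genes only AA467197 had a higher mean in post_SC (130 TPM) than in pre_SC (73.3 TPM). Slc2a1 averaged 69.1 TPM in post_SC, 231 in pre_SC, 76.2 in post_Liver and 43.5 in pre_Liver, the same order of groups as Ndrg1 apart from its treated groups.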

How the data were processed

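RNA was sequenced from digested tumors, and the tools fastp and StringTie and the genome GRCm38/mm10 are listed, per the submitters' processing notes, with neither role nor version. The tables name no unit, so units were read from the values. The authors deposited FPKM with 2 decimals for the 10 liver libraries (column sums 511645 to 547765) and TPM for the 6 subcutaneous libraries (each summing to 1000000). The third deposited table, of the 8 untreated libraries, holds scores: TPM plus a constant per gene and set of libraries, which left 2382 genes below 0. The constant was removed by comparison with the other tables, which restored TPM for 17396 of 17499 genes within 7.8e-06. Read depth is unknown. Rows whose names had become dates (24 in each of 2 tables) and 1 duplicated name were dropped.

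Values were analysed as log2(value + 1), so differences of low genes are understated. Genes with a mean of at least 1 were fitted with limma 3.58.1 in R 4.3.3 (trended eBayes, group as the only term). The fit was also run on simulated data with independent errors and the same spread in every group. That run does not cover the unequal spread of the groups here. Tables and plots used Python 3.11.15, pandas 2.3.3, NumPy 2.4.6 and matplotlib 3.10.9. Each response was fitted within its own table, the sites before treatment in restored TPM, and the difference of responses as an interaction in TPM over 17147 shared genes. Treated libraries of the sites were compared by value only. Alternatives covered the pseudocount (0.1), the filter, 4 rescalings, the trend, a replicate block, a hepatocyte covariate, the untreated table as deposited, the libraries the authors adjusted together, and each library left out. Dividing by the carcinoma sum and averaging post_Liver 2 and 3 were added after seeing the data. Coordinates and exon overlaps are from GENCODE M21 on GRCm38.

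The 10 genes and the other lists were chosen with earlier results of these data known. The text names the 10 genes, up to 3 tested genes per other pathway list and comparison in order of p, and leading markers of each cell type. It also names the 5 genes whose deviations were most like the mean of theirs. Ufsp2 was added for its overlap with Ankrd37 after its values were seen.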

Additional observations from a re-analysis of the deposited data

Results flagged for a closer look

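The response to paclitaxel differed between the sites, by the limma test of the difference itself (liver response minus subcutaneous response, log2), for Car9 at 3.48, P4ha1 at 2.76, Ndrg1 at 2.74 and Egln1 at 1.41. Of 25 alternatives, Car9 and Ndrg1 each lost the call in 15, Egln1 in 9 and P4ha1 in 1, and all 4 lost it when libraries were divided by the carcinoma epithelium sum. All of these had lower means in post_SC than in pre_SC, and only Car9 had a lower mean FPKM in post_Liver than in pre_Liver (7.09 against 7.86, although its mean log2 difference was 0.28).

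In 2 of the 20 gene and group combinations with 5 libraries, 1 library stood apart from the other 4 by more than 0.71 of the group's range. P4ha2 was 12.07 FPKM in pre_Liver 1, where the other untreated livers lay between 5.17 and 6.78 FPKM. Adm was 15.08 FPKM in post_Liver 5, where the other treated livers lay between 5.04 and 7.53 FPKM. Chance flags about 1 in 20 such groups.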

How the results depend on the processing

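Of 800 values of single members recomputed under the alternatives, 671 kept their direction and their side of the threshold, 76 lost a call, 11 gained one and 42 changed sign. In the fat pad no member changed sign. The count of genes called there was 928, 496 divided by the carcinoma sum and 78 to 773 with single libraries left out, with 3 to 7 members called and a member median of −1.23 to −0.98. In the liver the count of 474 became 222 under median of ratios scaling, 2 divided by the carcinoma sum, 272 with a hepatocyte covariate, 78 with pre_Liver 1 to 3 only, 159 with post_Liver 2 and 3 averaged and 117 to 3532 with single libraries left out, the highest without pre_Liver 2, with 0 to 1 members called. The member called was Egln1, without pre_Liver 2 or post_Liver 4. Before treatment, single libraries left out gave 2327 to 9490 genes and 5 to 8 members. For the difference of responses the 418 genes called became 3 divided by the carcinoma sum, 259 with post_Liver 2 and 3 averaged and 92 to 2603 with single libraries left out, and the 4 members became 0, 2 and 1 to 5. In this contrast 308 genes were higher and 110 lower, and 185 and 128 under median of ratios scaling. The members without overlap between treated sites, 1 in TPM over shared genes, were 0 under median of ratios scaling, 4 divided by the carcinoma sum and 1 to 2 with single libraries left out.

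The labels do not say whether the replicate numbers pair the samples. Same-numbered libraries correlated between −0.14 and 0.13 in the fat pad, where none was the best match. In the liver they correlated between −0.13 and 0.74, and for replicates 2 (0.65) and 4 (0.74) the same number was the best match. Pairing in the liver therefore cannot be settled from these values. With the number as a replicate block, 329 genes and 4 members were called in the fat pad, 3456 genes and 3 members (Ndrg1, Egln1 and Egln3) in the liver, 3773 genes and 7 members before treatment (replicates 1 to 3) and 1436 genes and 6 members in the difference of responses.

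Sign changes in the liver response concerned uncalled values. Divided by the carcinoma sum, the member median was −0.26, Car9 −0.47, P4ha1 −0.20, P4ha2 −0.77, Adm −0.084, Egln1 −0.32 and Ankrd37 −0.059. Car9 was −0.020 by median of ratios, −0.046 by quantiles, −0.18 with the hepatocyte covariate, −0.56 with pre_Liver 1 to 3 only and −0.12 to 0.72 with single libraries left out. P4ha2 was −0.29 by median of ratios, −0.25 by quantiles, −0.14 without liver genes, −0.015 with pre_Liver 1 to 3 only and −0.16 to 0.23 with single libraries left out. With the covariate Bnip3 was 0.25 and Ankrd37 −0.11, and Ndrg1 and Egln3, both 1.31 without it, were 0.58 and 0.050. P4ha1, Adm and P4ha2 were higher with the covariate than without it, at 0.85, 0.84 and 0.57.

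Before treatment, division by the carcinoma sum gave a member median of 0.093, 3 members called, and P4ha2 at 0.78, Vegfa 1.77, Egln1 0.41 and Egln3 0.19. Vegfa, uncalled otherwise, was 0.48 by median of ratios, 0.15 by quantiles, 0.28 without liver genes, 0.010 in the untreated table as deposited and −0.20 to 0.11 with single libraries left out. Bnip3 was −0.11 as deposited, −0.20 within the libraries adjusted together, the same with the replicate block, and −0.13 to 0.28 with single libraries left out. In the difference of responses, division by the carcinoma sum gave P4ha2 −0.26, Vegfa −0.44, Bnip3 −0.39 and Egln3 −0.13. The cause of these changes was not tested. Depth is unknown and 3 libraries a group limit the fat pad.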

Other observations

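Within groups, the size of the spread differed among the 10 genes. In the treated fat pad tumors the highest value was 3.17-fold the lowest for Car9 and 3.11-fold for Adm, but 1.01-fold for P4ha2 and 1.28-fold for P4ha1. In the untreated fat pad tumors Bnip3 had a coefficient of variation of 2.39% and Ndrg1 of 6.81%. In the untreated livers the coefficient was 99.1% for Car9 and 71.8% for Ndrg1, while those of Egln1 and Vegfa were 27.1% and 33.1%.

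A further contrast was seen among the mitophagy genes read beside Bnip3. Pink1, a kinase that starts another route of mitophagy, averaged 79.3 ± 17.5 TPM in post_SC and 42.0 ± 1.38 TPM in pre_SC (SD, n = 3 each), and 34.6 ± 13.8 FPKM in post_Liver and 61.2 ± 18.9 FPKM in pre_Liver (SD, n = 5 each). It rose in the fat pad, while its difference of −0.82 ± 0.29 in the liver did not pass the test (adjusted p = 0.109, limma). Its response in the liver was lower than that in the fat pad by 1.70 ± 0.43 (SE; adjusted p = 0.0487, limma), close to the threshold. That difference had the opposite sign to those called among the 10 HIF targets, and its call under the alternative settings is not given here.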
